A study of Mus musculus with 17 samples.

Results

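The thymi of 4 Tcf1-/- mice without a tumor were compared with the thymi of 5 Tcf1+/- mice on Affymetrix mouse genome arrays. These 9 arrays belong to a series of 17, the other 8 of which hold thymic lymphomas of Tcf1-/- mice. The samples were chosen by their titles alone. The Tcf1-/- mice were C57Bl/6 mice with ΔVII/ΔVII alleles and the controls were C57Bl/6 mice with wt/ΔVII alleles, so every mouse carried at least 1 ΔVII allele and no wild-type thymus was measured. The labels give no age for either group, and the study called a Tcf1-/- thymus tumor-free by its low cell number. Total RNA was taken from the homogenized thymus of 1 mouse per array, with no cells sorted out. The labels name homogenized thymus tissue, while the methods of the study speak of thymocytes, so how much of the stroma was kept is not settled. In such mixed samples fewer cells of a type and less RNA per cell cannot be told apart. Values are log2 signals, on which a difference of 1 is a change by a factor of 2, and signals of about 5 lie at the 40th percentile of an array, which is taken here as the level of background.

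Tcf1, the product of the gene Tcf7, is a DNA-binding protein of the TCF/LEF family that acts in T cell development and recruits beta-catenin when Wnt signals arrive. In the thymus, incoming progenitors turn on T-lineage genes under Notch signals, pass through double-negative (DN) stages and then become CD4+CD8+ double-positive thymocytes, which make up most of a normal thymus and rearrange the alpha chain of the T cell receptor. B cells, NK cells, macrophages and dendritic cells are minor residents of a normal thymus.

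Of 13755 genes tested with limma, 2037 (14.8%) differed at an adjusted p under 0.05, 1390 (10.1%) with a higher and 647 (4.7%) with a lower signal in Tcf1-/- thymi. The difference was larger than 2 on the log2 scale for 403 of the higher and 70 of the lower genes. The median difference over all genes was -0.01. The groups did not overlap for 2381 of the 13755 genes, of which 1860 were called. The arrays of Tcf1+/- replicates 1 and 2 stood apart from the other 7 of the comparison. The interquartile range of their log2 values was 2.97, against 3.51 to 3.74 on the others, and the 3' probe set of Gapdh exceeded the 5' probe set by 1.12 to 1.61, against -0.13 to 0.39. Tcf1+/- replicate 2 was also the only array with a high signal of Xist, the transcript of the inactive X chromosome, at 11.4. Xist was at 6.6 in Tcf1+/- replicate 1 and at 4.9 to 5.3 on the other 7 arrays. The Y-linked gene Eif2s3y was at 3.3 in Tcf1+/- replicate 2, at 8.1 in replicate 1 and at 8.8 to 9.5 on the other 7. The labels give no sex. By these genes Tcf1+/- replicate 2 was female, while all 4 Tcf1-/- mice were male, so the control group mixed the sexes. Without Tcf1+/- replicates 1 and 2, 1410 genes (10.3%) were higher and 1630 (11.9%) lower. Of these, 1139 and 593 were among those called with all 9 arrays. The share of higher genes was thus 68.2% with all 9 arrays and 46.4% without both. It was 53.5% after quantile normalization of the 9 arrays, which moved the median difference of all genes to -0.11, and 43.2% after centring each array on its median, which moved it to -0.22. The count of lower genes therefore depended on these arrays and on the scaling far more than the count of higher genes. Where leaving out these arrays or a single mouse moved the number of called genes of a list, both directions together and at least 4, by over 1.5 times, another count is given beside it.

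**Figure D1:**
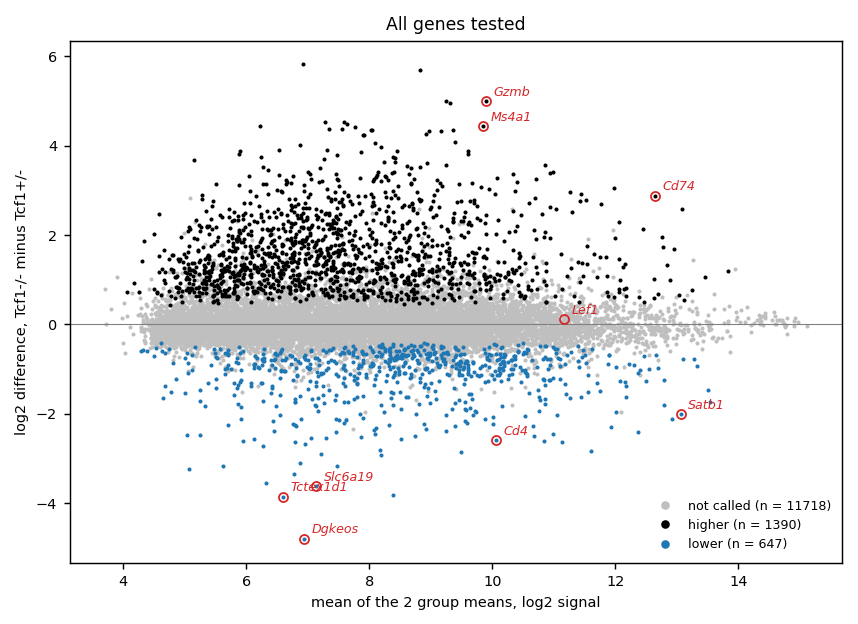
Log2 difference (Tcf1-/- minus Tcf1+/-, y axis) against the mean of the 2 group means (log2 signal, x axis) for the 13755 genes tested, with 1390 higher genes in black, 647 lower genes in blue and the others in grey. Red rings mark genes described in the text, of which Lef1 lies at 0.11 and was not called.

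The genes with the highest differences encode molecules of B cells, of cytotoxic and innate-like lymphocytes, and of chemokine signaling. Gzmb encodes the serine protease granzyme B, which killer lymphocytes deliver to target cells. Its signal was 13.2, 12.4, 11.9 and 12.1 in Tcf1-/- replicates 1 to 4 and 7.0, 7.4, 7.7, 7.4 and 7.5 in Tcf1+/- replicates 1 to 5, a difference of 5.00 (standard error 0.26, limma adjusted p = 6.88e-06). The exact two-sided permutation test over mice gave p = 0.00794, the smallest that 4 against 5 mice allow. Gzmb was named among genes whose groups did not overlap, so a p at this floor follows from that choice and adds no evidence. The lowest Tcf1-/- thymus was thus more than 4 log2 units above the highest control. Fcmr, the Fc receptor for IgM, was at 11.8 ± 0.68 (SD, n = 4) against 6.75 ± 0.78 (SD, n = 5). Cd163l1, a scavenger receptor found on gamma-delta T cells, was at 11.8 ± 0.85 against 6.82 ± 0.66 (SD, n = 4 and 5). A probe set annotated to the immunoglobulin heavy chain segment Ighv14-2 differed by 5.68 (standard error 0.52), the largest difference once symbols of uncharacterized transcripts are left out, of which Gm266 was higher at 5.82. V segments of this family resemble each other, so the segment itself is uncertain. The chemokine receptor Cxcr6, carried by innate-like and tissue-resident lymphocytes, differed by 4.35, and Naip5, a sensor of bacterial flagellin, by 4.44. Cxcl13, which attracts B cells, and its receptor Cxcr5 were both among the 15 highest, at 4.35 and 4.53.

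Some of the highest genes were carried unevenly by the mutant mice. Bst1, a surface enzyme of stromal cells and lymphoid progenitors, was at 7.7, 9.4, 10.1 and 11.0 in Tcf1-/- replicates 1 to 4 and at 4.4 to 5.6 in controls. Fbp1, an enzyme of gluconeogenesis, was at 8.0, 9.5, 10.1 and 11.9 against 4.8 to 5.8. Prg4, the proteoglycan lubricin, ran the other way, at 12.5, 10.9, 9.7 and 7.8 against 4.9 to 6.9. In all 3 the groups did not overlap, which was a condition for naming them, and replicates 1 and 4 lay at opposite ends of the mutant range. Mef2c, a transcription factor of B and myeloid cells, Fcer2a (CD23), Ms4a1 (CD20) and Ddc, which makes dopamine and serotonin, complete the 15. The other probe set of Ddc differed by -0.08 and was not called.

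**Figure D2:**
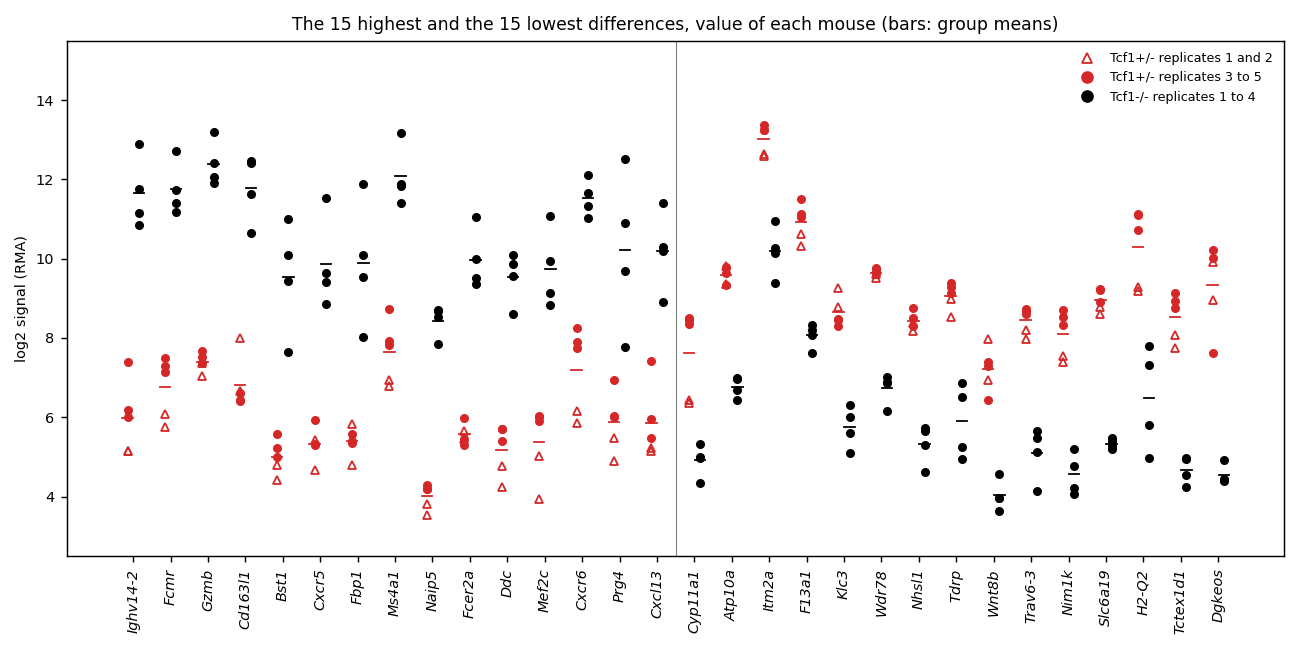
Log2 signal (y axis) of the 15 highest and the 15 lowest differences among called genes, symbols of uncharacterized transcripts left out, whose groups did not overlap (x axis), with 1 point per mouse, red for Tcf1+/- (triangles for replicates 1 and 2) and black for Tcf1-/-, and bars at the group means. All 30 were also called without Tcf1+/- replicates 1 and 2.

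Among the 15 lowest genes, several were at a clear signal in controls and near background in every Tcf1-/- thymus. Slc6a19, a transporter of neutral amino acids, was at 5.4, 5.3, 5.2 and 5.5 in Tcf1-/- replicates 1 to 4 and at 8.6, 8.8, 8.9, 9.2 and 9.2 in the controls, and fell by 3.62 (standard error 0.17, limma adjusted p = 6.88e-06). Dgkeos, a transcript that lies opposite to a diacylglycerol kinase gene, was at 4.4 to 4.9 against 7.6 to 10.2. Nim1k, a protein kinase, was at 4.1 to 5.2 against 7.4 to 8.7. All 3 lay within about 1 log2 unit of background in Tcf1-/- thymi, where differences are compressed. Itm2a, a membrane protein of developing thymocytes, was bright in both groups, at 9.4 to 11.0 against 12.6 to 13.4. Atp10a, a lipid-transporting ATPase, Klc3, a kinesin light chain, and Tdrp fell, by 2.81 to 3.17. Of the other probe sets of Atp10a, those at -2.05 and -2.36 were called lower and that at -0.37 was not called. The T cell receptor alpha segment Trav6-3 fell by 3.34 and the coagulation factor subunit F13a1 by 2.86. H2-Q2, a class I gene with near-identical neighbours, fell by 3.82, and the gene behind that probe set is uncertain. Cyp11a1, Nhsl1, Wnt8b and Wdr78 fell with the probe set used, at differences of -2.72 to -3.17, while at least 1 other probe set of each gave a difference between -0.39 and 0.01 and was not called.

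Genes of double-positive thymocytes had a lower signal in Tcf1-/- thymi. Of 12 tested members of that list, 10 fell and none rose, with a median difference of -1.98 beside -0.01 over all genes. The coreceptor Cd4 was at 9.3, 8.4, 8.8 and 8.6 in Tcf1-/- replicates 1 to 4 and at 11.0, 11.3, 11.4, 11.6 and 11.5 in controls, and fell by 2.60 (standard error 0.20, limma adjusted p = 7.1e-05). The coreceptor chains Cd8a and Cd8b1 fell by 1.96 and 2.42. The recombinase genes Rag1 and Rag2, which cut receptor genes for rearrangement, fell by 2.11 and 2.02. Rag1 was at 10.8, 11.2, 12.4 and 13.1 against 13.6 to 14.3, so it was far above background in every mutant mouse. Dntt, the polymerase that adds bases at the joins, fell by 1.48, Themis, a signaling protein of positive selection, by 2.02 and the chemokine receptor Ccr9 by 1.80. Arpp21 and Endou were not called, at differences of -1.23 and -1.96. Endou was at 12.4, 12.2 and 11.7 in Tcf1-/- replicates 2 to 4 and at 8.1 in replicate 1. The list's mean over its members lay 2.75, 1.87, 1.43 and 1.71 below the control mean in Tcf1-/- replicates 1 to 4, against -0.33 to 0.23 in single controls.

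The pan-T genes fell less. Of 14 tested members 7 fell and none rose, with a median difference of -0.70. The receptor chain Cd3e was at 11.0, 11.1, 10.9 and 10.8 in Tcf1-/- thymi against 11.4 to 11.7 in controls, a fall of 0.62 (standard error 0.13). Cd3d fell by 0.78 and Cd247, the zeta chain, by 1.65. Cd5 and Cd6, which dampen receptor signals, fell by 2.07 and 1.93 and the costimulatory receptor Cd28 by 1.94. Cd3g, Cd2 and Ptcra were at differences of -0.04, -0.21 and 0.50 and were not called. T-lineage transcripts were thus present in every Tcf1-/- thymus at signals near or above 11 for Cd3e.

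Transcription factors of the T lineage moved in both directions. Of 16 tested, 2 rose and 3 fell, and without Tcf1+/- replicates 1 and 2 the counts were 1 and 7. With single mice left out, between 3 and 6 of the 16 were called. Satb1, an organizer of chromatin in thymocytes, was at 11.5, 12.2, 12.5 and 12.0 against 13.7 to 14.4, a fall of 2.01 (standard error 0.22). Ets2 fell by 2.62, from 12.1 to 12.6 in controls to 9.5, 8.7, 10.3 and 10.8. Bcl11b, which maintains T cell identity, fell by 0.97 (adjusted p = 0.0244 from limma), at 11.6, 11.9, 12.4 and 12.9 against 12.9 to 13.4, the groups met at 12.9, and the call was lost when any of 5 single mice was left out. Runx3, which acts in cytotoxic and NK cells, rose by 1.95. Gata3 was at a difference of -0.24 and Lef1, the closest relative of Tcf7, at 0.11 (standard error 0.40), and neither was called. Lef1 varied between mutant mice, at 9.9, 12.2, 11.7 and 11.2 against 10.8 to 11.5 in controls.

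The Id proteins, which block the DNA binding of E proteins, did not move together. Id2, needed by NK and innate lymphoid cells, was at 12.3, 11.7, 11.8 and 11.5 against 9.5 to 10.4, a rise of 1.96. Id3, induced by T cell receptor signals, fell by 1.56, at 9.4, 9.6, 9.0 and 7.6 against 10.2 to 10.6. Id1 was at 5.7, 7.2, 8.5 and 9.3 against 5.5 to 5.6, a rise of 2.16, so its rise was small in Tcf1-/- replicate 1 and large in replicate 4, and its call was lost when any of 8 single mice was left out. The E proteins Tcf3, Tcf12 and Tcf4 were at differences of -0.14, -0.15 and 0.75 and were not called. Egr1 and Egr2, immediate-early factors downstream of the T cell receptor, fell by 2.24 and 2.40. Of the other tested immediate-early genes Jun and Ier3 rose, by 2.26 and 1.90. With single mice left out, between 2 and 6 of the 17 were called. Jun was at 9.7, 8.3, 7.3 and 6.2 against 5.4 to 5.7, and it was not called without the 2 control arrays that stood apart or without Tcf1-/- replicate 2. Fos was at 12.6, 9.8, 8.8 and 6.0 against 6.1 to 7.1 and was not called.

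Genes of early thymic progenitors and of DN2 to DN3 thymocytes had a higher signal. Of 15 tested, 10 rose and none fell, with a median difference of 1.76. Hhex and Lmo2, transcriptional regulators expressed in progenitors, rose by 3.22 and 3.21. Lmo2 was at 10.7, 9.7, 9.3 and 9.4 in Tcf1-/- thymi and at 6.3 to 7.1 in controls. Lyl1, a basic helix-loop-helix factor that pairs with Lmo2, rose by 2.75, the stem cell factor receptor Kit by 2.60 and the interleukin 2 receptor chain Il2ra (CD25), which marks DN2 and DN3 cells, by 2.75. Il2ra was at 9.1, 10.5, 10.8 and 11.2 against 7.1 to 8.2, with all 4 mutant mice above all 5 controls. Csf1r and Spi1 are also expressed by macrophages, and Flt3 by dendritic cells, whose lists rose as well. Lmo2 and Lyl1 were highest in Tcf1-/- replicate 1, Lyl1 at 9.94 against 8.49 to 8.54 in the other mutant mice. That mouse also had the highest B cell and macrophage means, while its Il2ra signal was the lowest of the mutant mice. Whether B cells or myeloid cells carried part of these rises was not tested. Gfi1b, Erg and Meis1 were at differences of 0.18, -0.12 and -0.20 and were not called. The list's mean lay 1.80, 1.76, 1.85 and 1.53 above the control mean in Tcf1-/- replicates 1 to 4.

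Many Notch pathway genes were higher as well, on a list that shares Il2ra and Notch3 with the progenitor list. Of 20 tested, 9 rose and 1 fell, with a median difference of 0.60. Among receptors, Notch1, Notch2 and Notch3 rose by 1.57, 1.47 and 1.30, and Notch4, at 0.55, was not called. The ligand Jag1 was at 7.6, 6.5, 6.4 and 6.6 against 3.9 to 4.4, a rise of 2.66, while Dll4, the main thymic ligand, was at a difference of -0.22 and was not called. Among targets, Dtx1 was at 11.7, 11.4, 12.3 and 12.1 against 8.0 to 9.7, a rise of 2.99 (standard error 0.36, limma adjusted p = 0.000502), and Heyl, Nrarp and Hes1 rose by 2.33, 1.94 and 1.03. The coactivator Maml1 fell by 0.75, and Rbpj, the DNA-binding partner, was at 0.62 and was not called. Of 21 tested Wnt pathway genes 3 rose and none fell, near the shares over all genes of 10.1% higher and 4.7% lower. Those that rose were the receptors Fzd5 and Fzd7, by 1.67 and 1.19, and the ligase Rnf43, which removes Wnt receptors, by 1.40. For Fzd7 the probe set brightest over these 9 arrays differed by -0.36 and was not called. Axin2, a common target of beta-catenin, was at 6.8 in all 4 Tcf1-/- thymi and at 6.9 to 7.5 in controls. This difference of -0.40 (standard error 0.16, adjusted p = 0.136 from limma) was not called. Its groups did not overlap, which was also so for 2381 of all 13755 genes tested, 1860 of them called. The median difference of the Wnt list was 0.09, and it was -0.11 with arrays centred on their medians and -0.06 after quantile normalization. Without the 2 control arrays that stood apart, 5 Wnt genes rose and 1 fell.

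**Figure D3:**
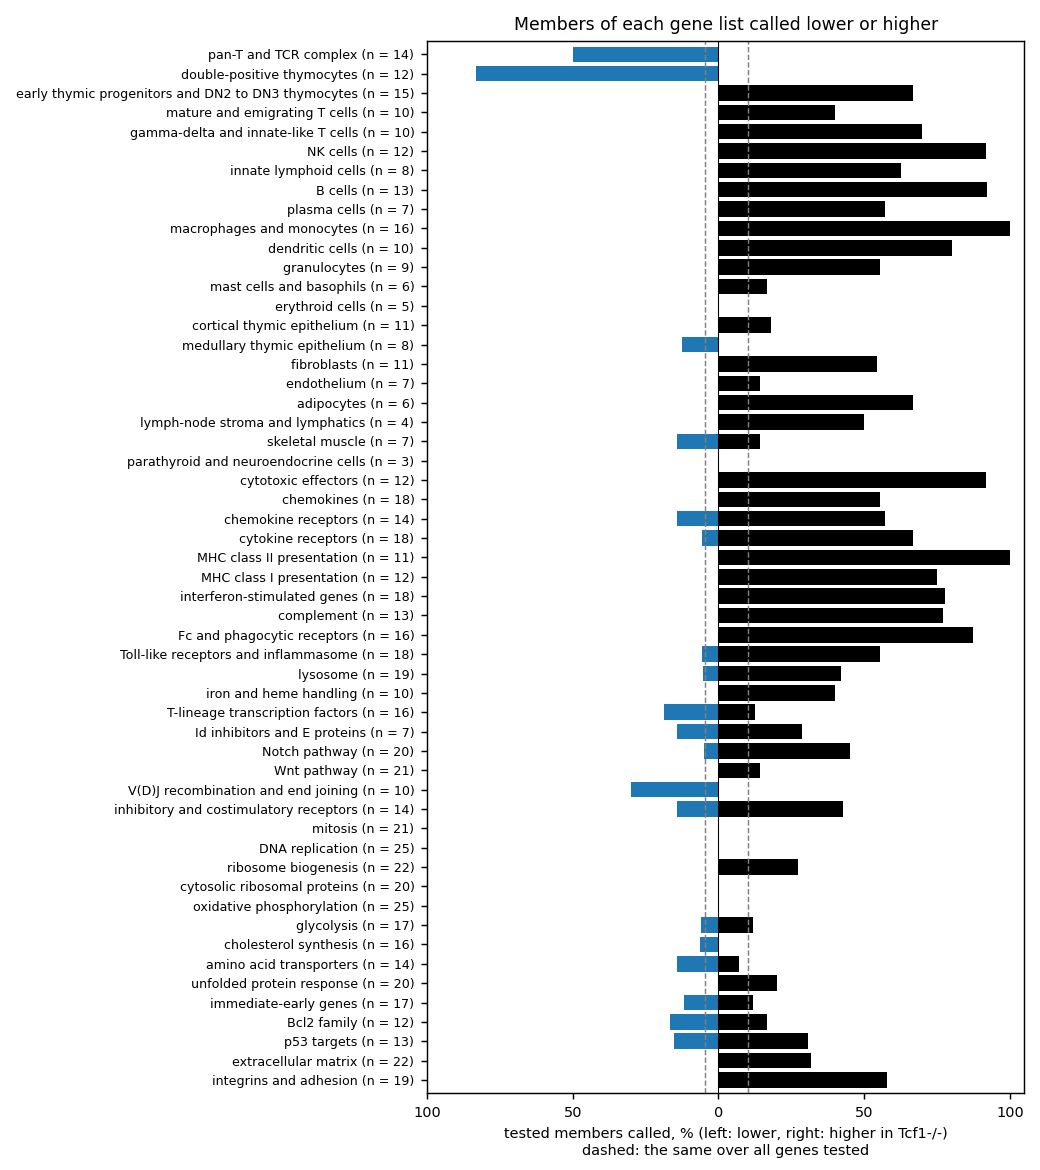
Tested members of each of the 54 gene lists that were called higher (black, to the right) or lower (blue, to the left) in Tcf1-/- thymi, in % of the n members tested, with dashed lines at 10.1% and 4.7%, the shares over all genes tested. The lists of double-positive thymocytes, pan-T genes and V(D)J recombination hold only lower calls. So do those of medullary epithelium and cholesterol synthesis, with 1 each. The lists of macrophages and MHC class II presentation have all tested members higher.

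Innate-like and cytotoxic lymphocyte genes were among the highest lists. Of 10 tested genes of gamma-delta and innate-like T cells 7 rose and none fell, with a median of 2.20. The gamma chain segment Trgv4 was at 12.5, 13.3, 12.6 and 13.2 against 9.0 to 10.6, a rise of 2.92, and Sox13, a factor of gamma-delta T cells, rose by 1.25. Maf and Blk, both used by interleukin 17-producing T cells, rose by 3.52 and 3.40, and the chemokine receptor Ccr6 by 3.38. Il17a and Zbtb16, the factor of invariant NKT cells, were at 0.46 and 0.03 and were not called. Among NK cell genes 11 of 12 rose, with a median of 2.49. The receptor Klrd1 was at 12.0, 11.2, 11.1 and 9.8 against 7.1 to 8.6, a rise of 3.13. Tbx21, the factor T-bet, was at 9.1, 8.1, 7.7 and 6.2 against 4.9 to 5.5. Eomes was not called, at 1.16, and Ncr1 and Klra8 did not pass the filter on low signals, although Klra8 reached 6.1 in a Tcf1-/- thymus against at most 3.95 in controls.

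The tools of killing and of lymphocyte recruitment rose with them. Of 12 cytotoxic effector genes 11 rose, among them Fasl, the ligand of the death receptor Fas, by 3.41, the granzymes Gzma and Gzmc by 1.96 and 2.09 and perforin, Prf1, by 1.81. Fasl was at 9.6, 8.7, 8.3 and 8.2 against 4.8 to 5.6. Another 5 listed genes did not pass the filter. Of these, Gzmd, Gzme, Gzmf and Gzmg reached at most 3.96 in Tcf1-/- thymi and 4.06 in controls, and Ifng 6.96 and 4.43. Genes near background in controls, such as Fasl, can pass the filter through the Tcf1-/- arrays, which favours rises among tested members. Of 18 chemokines 10 rose and none fell, and Ccl5, a product of cytotoxic cells, was at 13.5, 12.8, 12.7 and 11.6 against 8.8 to 9.4. Chemokine receptors split, since 8 rose (Ccr1, Ccr2, Ccr6, Cxcr3, Cxcr5, Cxcr6, Cx3cr1 and Xcr1, by 1.52 to 4.53) while Ccr9 and Cxcr4, which guide thymocytes within the cortex, fell by 1.80 and 0.92. Of 18 cytokine receptor genes 12 rose and 1 fell. Il18r1, which confers the response to interleukin 18, was at 11.2, 10.5, 10.5 and 9.3 in Tcf1-/- thymi and at 6.5 to 6.6 in all 5 controls, and Il7r rose by 1.93. The receptor that fell was Il21r, by 1.29. Of 10 genes of mature and emigrating T cells 4 rose, and Ccr7, the receptor for medullary entry, was not called at 0.13. Of 14 inhibitory and costimulatory receptors 6 rose, among them Cd160, Ctla4 and Btla by 2.62 to 2.97, and Cd27 and Cd28 fell by 1.22 and 1.94. Without Tcf1-/- replicate 4 this count was 10.

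B cell genes had the largest median of the 22 cell type lists. Of 13 tested 12 rose, with a median difference of 3.49. Cd79a, a chain of the B cell receptor, was at 12.96, 11.41, 11.01 and 9.95 in Tcf1-/- replicates 1 to 4 and at 6.5 to 7.5 in controls, a rise of 4.32 (standard error 0.49). Ms4a1 was at 13.2, 11.9, 11.8 and 11.4 against 6.8 to 8.7, and Cd22, an inhibitory receptor of B cells, rose by 4.34. Cr2, the complement receptor of mature B cells, rose by 4.02, Ebf1, a factor that specifies B cells, by 2.32, and Vpreb3, a gene of B cell precursors, by 1.59. Pax5, which defines the lineage, was at 5.6 to 6.1 against 5.2 to 6.4 with the probe set used and was not called. Of 7 plasma cell genes 4 rose, and Jchain, the joining chain of secreted antibody, was at 0.69 and was not called. Among genes of lymph-node stroma the vessel and stroma markers Glycam1, Madcam1, Chst4 and Prox1 did not pass the filter on low signals, while Cxcl13 rose by 4.35 and Lyve1 by 0.93. The part of a lymph node taken along with a thymus in these values was not tested.

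Myeloid gene lists held many rises. All 16 tested genes of macrophages and monocytes rose, with a median of 2.43, and 15 did so without the 2 control arrays that stood apart. Csf1r, the receptor for macrophage colony-stimulating factor, was at 12.9, 12.4, 12.0 and 11.1 against 8.5 to 9.9, a rise of 2.83. C1qa, a subunit of complement C1q, was at 12.7, 11.6, 11.3 and 10.8 against 8.3 to 9.6. C1qb, at 12.4, 11.4, 10.7 and 9.1 against 8.3 to 9.6, overlapped with the controls in Tcf1-/- replicate 4 and was the gene lost without these arrays. In controls the same list lay at -0.63 and -0.60 in replicates 1 and 2 and at 0.35 to 0.49 in replicates 3 to 5, relative to the control mean. Of 16 Fc and phagocytic receptors 14 rose, among them Cd5l, secreted by tissue macrophages, by 3.51, the scavenger receptors Cd36 and Marco by 3.11 and 2.99 and Timd4, which binds dying cells, by 2.69, while Trem2 was at 0.09 and was not called. Dendritic cell genes rose in 8 of 10, and 6 without these arrays. Of 13 complement genes 10 rose, and 6 without Tcf1-/- replicate 2. Of 18 genes of Toll-like receptors and the inflammasome 10 rose and 1, the adaptor Pycard, fell by 1.30.

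Granulocyte genes were carried by 3 of the 4 mutant mice. S100a9, a calcium-binding protein of neutrophils, was at 11.2, 13.6, 13.4 and 12.4 against 6.7 to 11.0, a rise of 3.40 that was not called without Tcf1-/- replicate 2. Ltf and Camp, proteins of neutrophil granules, were at 5.5 and 6.3 in Tcf1-/- replicate 1, against 9.7 to 11.3 and 10.3 to 12.0 in replicates 2 to 4, and were not called. The list's mean lay 0.45 above the control mean in replicate 1 and 2.29 to 3.38 above it in the others. Single controls lay at -0.92 to 0.83, so Tcf1-/- replicate 1 was within their range. All 9 tested members were called without that mouse, in place of 5 with it, while 2 were called without replicate 2 and 3 without replicate 3.

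Antigen presentation and the interferon response rose in all mutant mice. All 11 tested MHC class II genes rose, with a median of 2.46. The invariant chain Cd74 was at 14.7, 14.2, 14.1 and 13.4 against 10.1 to 11.8, a rise of 2.88, and the regulator Ciita was at 6.63 to 7.68 against 4.71 to 5.28, a rise that passed the test. H2-Ob, a chain of the peptide-exchange inhibitor of B cells, was at 11.4, 10.1, 9.9 and 9.0 against 5.0 to 6.7, a rise of 4.06. Of 12 class I genes 9 rose, H2-K1 by 1.74 and B2m by 1.19. Of 18 interferon-stimulated genes 14 rose, with a median of 1.86. Oasl2 was at 10.5, 9.0, 8.6 and 8.2 against 5.3 to 6.7 and Irf7, which amplifies the response, at 8.9 to 11.2 against 7.3 to 7.8. Without the 2 control arrays 9 of the 18 were called, and without Tcf1-/- replicate 2 also 9. The list's mean was 2.83, 1.84, 1.63 and 0.94 above the control mean in Tcf1-/- replicates 1 to 4.

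**Figure D4:**
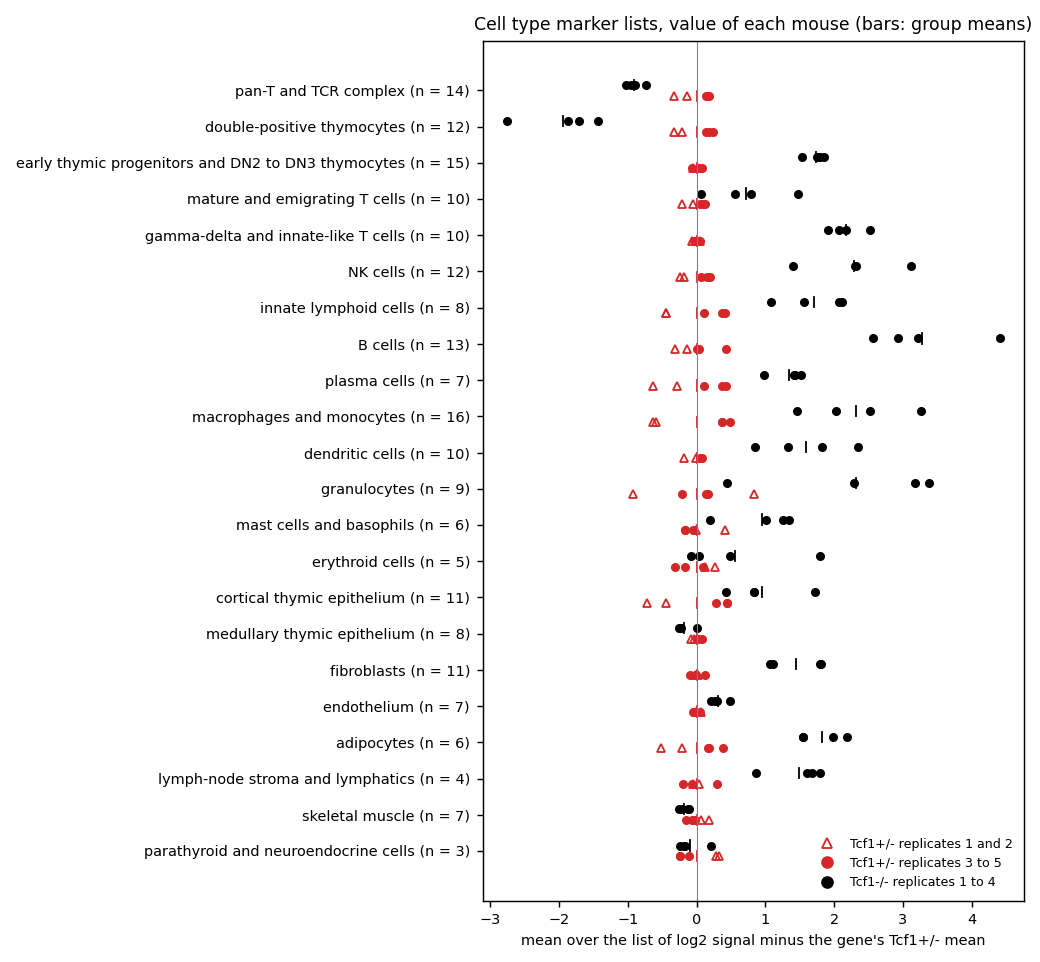
Mean over the tested markers of each cell type of the log2 signal minus the gene's Tcf1+/- mean (x axis), with 1 point per mouse, red for Tcf1+/- (triangles for replicates 1 and 2), black for Tcf1-/-, and bars at the group means. B cell markers lie between 2.57 and 4.41 in the 4 Tcf1-/- mice, and double-positive thymocyte markers between -2.75 and -1.43.

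The 4 mutant mice thus did not carry these lists equally. Tcf1-/- replicate 1 had the highest mean for B cells (4.41 against 2.57 to 3.22), macrophages (3.26 against 1.46 to 2.51), NK cells (3.12 against 1.40 to 2.31), MHC class II (3.39 against 1.86 to 2.63) and interferon-stimulated genes, and the lowest for double-positive thymocytes. Replicate 4 had the lowest mean of each of these 5 rising lists. In the progenitor list replicate 4 was also lowest (1.53 against 1.76 to 1.85), while in the Notch list it was highest (1.19 against 0.81 to 1.18). Whether the mixture of cells sets these differences between mice was not tested.

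Epithelial and stromal lists held both rises and genes that were not called. Of 11 tested genes of cortical epithelium Tbata and Krt18 rose, by 1.70 and 1.69, and Psmb11, the thymoproteasome subunit, was at 6.8, 7.4, 6.9 and 9.4 against 5.4 to 7.0 and was not called. The median of this list was 1.24, or 0.69 without the 2 control arrays that stood apart. In either direction, 8 of its genes had an unadjusted p under 0.05 in limma. Foxn1, the factor that defines thymic epithelium, was near background at 4.6 to 5.0 against 4.4 to 5.4. None of 8 medullary epithelial genes rose, Aire was at 5.2 to 5.3 against 5.2 to 5.7, and Cldn4, a tight junction protein, fell by 1.78. Of 11 fibroblast genes 6 rose. Fibronectin, Fn1, also made by macrophages, was at 13.4, 12.2, 11.5 and 9.0 against 7.1 to 8.7, and the receptor Pdgfrb was at 9.8 to 11.1 against 5.7 to 7.2, while Col1a1, Lum and Dpt were at 0.17 to 0.27 and were not called. Of 22 extracellular matrix genes 7 rose and none fell. Of 19 integrin and adhesion genes 11 rose, among them Cdh1, E-cadherin, by 3.63 and Itgae, the integrin chain that binds E-cadherin, by 2.64. Of 6 genes of the adipocyte list Scd1, Fabp4, Lpl and Pparg rose, by 0.81 to 4.26. These 4 handle fatty acids in many cell types including macrophages, and Adipoq, which is made by fat cells, was at 4.4, 4.2, 4.4 and 6.4 against 4.0 to 4.6 and was not called. Endothelial genes rose in 1 of 7 and mast cell genes in 1 of 6, near the share of 10.1% over all genes. Erythroid genes rose in none of 5, where no gene had an unadjusted p under 0.05 in limma. Of 7 skeletal muscle genes Tnni2 rose by 0.71 and Mylpf fell by 1.68, and of 3 parathyroid and neuroendocrine genes none was called or had an unadjusted p under 0.05.

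Cell cycle genes were lowest in 1 mutant mouse. No mitosis gene of 21 and no DNA replication gene of 25 was called by limma. At an unadjusted p under 0.05 there were 5 and 2, and over all genes 3560 of 13755. All 21 mitosis genes had a difference below 0, with a median of -0.63, or -0.94 without the 2 control arrays that stood apart, whose list means lay at -0.36 and -0.49 against 0.25 to 0.31 in the other controls. The median of the replication list was -0.13, or -0.32 without these arrays. The mitosis list's mean lay 2.33 below the control mean in Tcf1-/- replicate 1 and between 0.09 and 0.22 below it in the others. Cdc20, an activator of the anaphase-promoting complex, was at 9.5, 11.7, 11.7 and 11.7 against 12.1 to 12.4. Mcm6, a subunit of the replicative helicase, was at 11.5 in replicate 1 and at 12.8 to 12.9 in the others, with controls at 11.8 to 12.5. The mutant mouse with the highest B cell, NK cell and macrophage means was thus the mouse with the lowest mitosis and replication means.

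Pathways of metabolism, protein synthesis and cell survival differed in how many of their genes were called, beside 10.1% higher and 4.7% lower over all genes. No gene of 20 cytosolic ribosomal proteins and none of 25 of oxidative phosphorylation was called by limma, with medians of 0.12 and -0.10, and 2 and 1 of them had an unadjusted p under 0.05. Of 22 genes of ribosome biogenesis 6 rose, by 0.62 to 1.03, and this count was 10 without Tcf1-/- replicate 1 and 3 without replicate 2. Hexokinase 2, Hk2, was at 8.0 to 8.3 against 6.7 to 7.1, a rise of 1.20, and of the other glycolysis genes Aldoc rose and Pfkm fell. These glycolysis calls, 2 higher and 1 lower of 17, were near the shares over all genes. Without the 2 control arrays 5 of 17 glycolysis genes rose. Of 16 cholesterol synthesis genes Dhcr7 fell by 0.98 and no other was called. Of 19 lysosomal genes 8 rose, led by the cathepsins Ctsh and Ctss at 2.75 and 2.29, and Lipa, the lysosomal lipase, fell by 1.83. Without the 2 control arrays 6 lysosomal genes rose and 3 fell. Of 20 genes of the unfolded protein response 4 rose, and between 1 and 6 when single arrays were left out. Of 14 amino acid transporters Slc7a7 rose by 1.02, and Slc7a11 and Slc6a19 fell. Of 10 iron and heme genes 4 rose, among them the iron exporter Slc40a1 by 1.76. Among the Bcl2 family, Bcl2 rose by 1.20 while Bcl2l1, which encodes the survival protein Bcl-xL of double-positive thymocytes, fell by 1.67, at 8.5, 8.5, 9.2 and 9.2 against 10.2 to 10.7. The groups of Bcl2l1 did not overlap. Pmaip1 (Noxa) rose by 2.25 and Bmf fell by 1.13. Of 13 targets of p53 4 rose, Cdkn1a by 1.25, and 2 fell. Both counts were 4 without the 2 control arrays, and 2 rose and 1 fell without Tcf1-/- replicate 2. The V(D)J list fell in 3 of 10, the Rag genes and Dntt, and none of the end-joining genes was called, while 5 of the 10 fell without the 2 control arrays.

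Some genes called in the same direction lay next to each other. In the RefSeq order of 13730 tested genes there were 18 runs of at least 4 neighbouring genes with the same call, 15 higher and 3 lower, which hold 84 of the 2037 called genes. Runs were looked for after the values had been seen. Several higher runs were families of related genes, such as Klre1, Klrd1, Klrk1, Klrc1, Klra17 and Klra5 of NK cell receptors on chromosome 6, Clec4a3, Clec4a2, Clec4n, Clec4d and Clec4e of C-type lectins of myeloid cells on the same chromosome, and H2-Ob, H2-Ab1, H2-Aa, H2-Eb1 and H2-Eb2 of MHC class II on chromosome 17. Probe sets of such relatives can share targets, so their calls are not separate evidence. Other runs joined genes of different families. Pip4p1 and Pnp lay with the ribonuclease genes Ang, Rnase4 and Rnase6 on chromosome 14. A lower run on chromosome 5 held Agfg2, Gm15498, Nyap1, Tsc22d4 and Ppp1r35. A higher run on chromosome 11 held Irf1, Slc22a5, Pdlim4 and Csf2, at differences of 0.70 to 1.79. All 4 were also called without the 2 control arrays that stood apart. How near the run on chromosome 11 lies to Tcf7 was not tested.

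The longest lower run held 6 genes on chromosome 4, Tctex1d1, BB031773, Insl5, Wdr78, Mier1 and Slc35d1 in that order. Tctex1d1, a dynein light chain gene, was at 4.2, 4.5, 4.9 and 5.0 in Tcf1-/- thymi and at 8.1, 7.7, 9.1, 8.9 and 8.8 in controls, a fall of 3.85. Insl5, an insulin-like peptide hormone, was at 4.6, 5.2, 5.9 and 7.4 against 7.5 to 8.8, a fall of 2.55. Wdr78, a dynein intermediate chain gene, was at 6.2 to 7.0 against 9.5 to 9.8. The groups did not overlap for these 3 genes. The transcript BB031773 fell by 3.23, the chromatin cofactor Mier1 by 1.23 and the nucleotide sugar transporter Slc35d1 by 1.05, and all 6 were called without the 2 control arrays. The call of Slc35d1 was lost when any of 6 single mice was left out. The tested genes on either side were not called, Sgip1 at 0.66 and Oma1 at 0.21. In the 8 lymphomas Tctex1d1 was at 3.9 to 5.6 and BB031773 at 3.2 to 3.8.

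**Figure D5:**
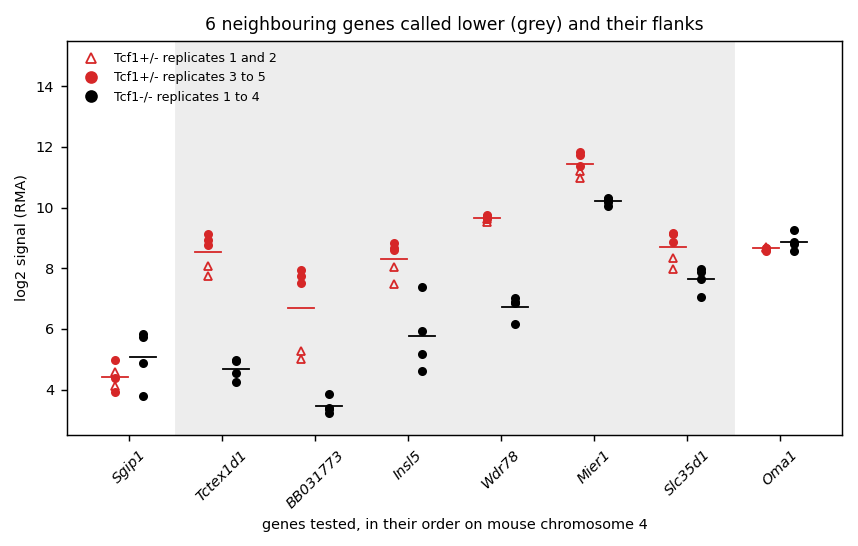
Log2 signal (y axis) of 6 genes called lower that lie next to each other among the tested genes of mouse chromosome 4 (grey field) and of the genes on either side (x axis, in order), with 1 point per mouse in red for Tcf1+/- (triangles for replicates 1 and 2) and black for Tcf1-/-, and bars at the group means. For Tctex1d1 all Tcf1-/- values are at 5.0 or below and all Tcf1+/- values at 7.7 or above, while the flanking genes overlap.

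The tested genes around Tcf7 itself were also counted. Of the 20 tested genes nearest to it, 10 on each side, 1 was higher and 1 lower, and of the nearest 100 genes 14 were higher and 5 lower (19.0%, beside 14.8% over all genes).

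TCF and LEF proteins bind the letters CTTTGAA or CTTTGAT, which were searched on both strands in the 250 bases before the start of each gene (RefSeq, GRCm38.p6, first listed start). They were found before 6.25% of 1104 higher genes, 6.36% of 519 lower genes and 5.61% of 9430 genes that were not called, beside 5.71% of all 11053 tested genes and 7.67% of all 27025 genes with a promoter in the table. The letters were thus about as frequent before called genes as before the others, and none of the 22 most changed genes that had a promoter held them. Of 212 called members of the gene lists 16 held them. The windows of 5 of these are shown, chosen with their direction known. Cd3d and Bcl11b are T-lineage genes that fell, and Lyl1 and Flt3 are members of the progenitor list that rose. The granzyme gene Gzmk rose by 1.29. Capitals mark the letters searched or their reverse complement, and the sequence is given on the strand of the gene. A match in a window of this length is a description of the sequence, and binding was not measured.
Cd3d (chr9:44981536-44981785, + strand): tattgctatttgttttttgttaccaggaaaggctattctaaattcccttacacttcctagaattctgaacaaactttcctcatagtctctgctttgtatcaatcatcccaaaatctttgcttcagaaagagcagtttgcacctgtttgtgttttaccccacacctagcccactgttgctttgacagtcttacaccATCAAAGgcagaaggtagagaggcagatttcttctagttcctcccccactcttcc
Bcl11b (chr12:108003415-108003664, - strand): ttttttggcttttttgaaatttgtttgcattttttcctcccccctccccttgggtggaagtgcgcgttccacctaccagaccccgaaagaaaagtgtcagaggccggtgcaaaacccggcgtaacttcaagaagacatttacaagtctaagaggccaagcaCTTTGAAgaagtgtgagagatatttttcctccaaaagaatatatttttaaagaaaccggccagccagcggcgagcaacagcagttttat
Lyl1 (chr8:84701207-84701456, + strand): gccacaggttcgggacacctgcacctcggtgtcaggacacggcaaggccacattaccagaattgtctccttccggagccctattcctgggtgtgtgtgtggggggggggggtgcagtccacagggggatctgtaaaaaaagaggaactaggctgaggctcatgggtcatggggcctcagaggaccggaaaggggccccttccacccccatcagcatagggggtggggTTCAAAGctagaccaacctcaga
Flt3 (chr5:147400490-147400739, - strand): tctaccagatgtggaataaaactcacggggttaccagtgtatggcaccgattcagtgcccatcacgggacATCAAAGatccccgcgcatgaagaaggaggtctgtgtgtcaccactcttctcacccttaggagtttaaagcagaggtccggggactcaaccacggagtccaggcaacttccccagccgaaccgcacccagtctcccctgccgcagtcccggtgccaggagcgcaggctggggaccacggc
Gzmk (chr13:113180966-113181215, - strand): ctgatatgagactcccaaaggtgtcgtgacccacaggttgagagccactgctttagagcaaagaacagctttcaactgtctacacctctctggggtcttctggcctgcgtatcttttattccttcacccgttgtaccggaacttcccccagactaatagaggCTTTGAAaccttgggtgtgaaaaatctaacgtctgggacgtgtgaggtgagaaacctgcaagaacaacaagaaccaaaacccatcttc
The letters begin 55 bases before the start of Cd3d, 89 before Bcl11b, 23 before Lyl1, 180 before Flt3 and 88 before Gzmk. Of these genes Cd3d and Bcl11b fell by less than 1, and Lyl1 rose by 2.75 and Flt3 by 1.43. Both directions among the genes shown follow from how they were chosen. Over all called genes with a promoter, the letters were found before 69 higher and 33 lower genes.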

How the data were processed

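RNA of 9 thymi was hybridized to Affymetrix mouse genome arrays. The authors normalized the arrays by RMA in R and deposited log2 signals of 45101 probe sets. RMA equalizes the brightness of probes between arrays normalized together, which can hide a shift common to most genes. The deposited signals were still not equally distributed. Their interquartile range was 2.97 on Tcf1+/- replicates 1 and 2 and 3.51 to 3.74 on the other arrays of the comparison. The genome build behind the array's annotation is not given in the sources used here. From the deposited log2 values, 34945 probe sets with 1 gene symbol were kept, 932 with several and 9160 with none were not used, and each of 18193 genes was represented by its brightest such probe set on average across the series. A gene was tested when 4 or more of the 17 arrays gave it a signal beyond that array's 40th percentile, which 13755 genes did. A gene near background in controls can thus be tested through the 4 Tcf1-/- arrays, while genes low throughout are left out. Counts of rises among tested members are favoured by this.

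Differences are Tcf1-/- minus Tcf1+/- means, fitted on the 9 arrays with limma 3.58.1 in R 4.3.3 (lmFit, eBayes) and called at a Benjamini-Hochberg adjusted p under 0.05 over all genes tested. The script was tested on simulated data. For single genes, an exact two-sided permutation test over the 126 splits of the mice was added. Each array holds 1 mouse, so the number of arrays limits the precision. The text names the 15 highest and 15 lowest called genes whose groups do not overlap, leaving out symbols of uncharacterized transcripts (Rik, Gm, LOC and accession-like symbols), then members of 54 gene lists, up to 6 called members with the largest differences, defining members that were not called, and some further members picked after their values were seen. The gene lists and their members were chosen with earlier results of these data known. Some genes are on several lists, so the counts of different lists are not separate results. Of the listed genes 54 did not pass the filter and 74 had no probe set with 1 symbol here. The transcript of the targeted gene is not analysed here. Alternatives were the samples in the fit, the filter, the probe set taken, the scaling, the variance model and the test.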

Additional observations from a re-analysis of the deposited data

Results flagged for a closer look

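In 31 of 544 groups looked at, for the genes and lists described, 1 mouse lay far from the rest of its group (5.70%, where chance alone gives about 1 in 20). Values are log2 signals, and for lists the mean over members above the control mean.

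Tcf1-/- replicate 1 stood apart for Agfg2 at 7.18 (others 7.92 to 8.04), Cdc20 at 9.52 (others 11.65 to 11.71), Cdkn1a at 9.57 (others 8.02 to 8.22) and Endou at 8.06 (others 11.69 to 12.44). It did so too for Jag1 at 7.64 (others 6.38 to 6.56), Lyl1 at 9.94 (others 8.49 to 8.54), Mcm6 at 11.54 (others 12.84 to 12.94) and Themis at 8.94 (others 10.34 to 10.49). It did so too for Tnni2 at 6.55 (others 5.80 to 5.84), the mean of T-lineage transcription factors at -0.81 (others -0.27 to -0.17), the mean of mitosis at -2.33 (others -0.22 to -0.089) and the mean of DNA replication at -1.34 (others 0.18 to 0.37).

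Tcf1-/- replicate 4 stood apart for Adipoq at 6.41 (others 4.15 to 4.43), Cd8a at 10.13 (others 11.25 to 11.47), Dgkeos at 4.93 (others 4.39 to 4.44) and Marco at 7.06 (others 8.29 to 8.48). It did so too for the mean of medullary thymic epithelium at 0.0081 (others -0.26 to -0.23) and the mean of parathyroid and neuroendocrine cells at 0.20 (others -0.25 to -0.17).

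Tcf1+/- replicate 1 stood apart for Cd163l1 at 7.99 (others 6.42 to 6.66), Cd8a at 12.77 (others 13.03 to 13.05), Hhex at 5.00 (others 5.94 to 6.29) and the mean of mast cells and basophils at 0.41 (others -0.17 to -0.014).

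Tcf1+/- replicate 2 stood apart for Gzmc at 4.46 (others 3.82 to 4.00), Heyl at 4.90 (others 4.60 to 4.67), Pparg at 5.05 (others 5.82 to 6.12) and Xist at 11.41 (others 5.09 to 6.59).

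Tcf1+/- replicate 4 stood apart for Cd160 at 7.12 (others 6.63 to 6.76) and Oma1 at 8.57 (others 8.66 to 8.69).

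Tcf1+/- replicate 3 stood apart for Flt3 at 6.44 (others 6.62 to 6.68).

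Tcf1-/- replicate 2 stood apart for Pycard at 10.39 (others 11.20 to 11.36).

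Tcf1-/- replicate 3 stood apart for Slc40a1 at 9.31 (others 9.89 to 9.97).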

How the results depend on the processing

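Over single mice left out in turn, 1394 to 2042 genes were called, 986 to 1449 of them higher and 408 to 656 lower, and the share of higher genes ranged from 64.9% to 73.4%. Fewer lower genes were called without Tcf1-/- replicate 2 (408) and without Tcf1+/- replicates 4 (431) or 5 (424). Without both control arrays that stood apart 1630 lower genes were called and the share of higher genes was 46.4%. Quantile normalization gave 1097 lower genes and a share of 53.5%, centring on the median 1399 and 43.2%, and array weights 5611 genes in all, 2680 higher and 2931 lower, a share of 47.8%. All 17 arrays in 1 fit gave a share of 71.3% and the filter at the 60th percentile 65.6%. A log2 difference over 1 added to the threshold gave 1327 genes, 290 of them lower, and 78.1%. The exact Mann-Whitney U test called 0 genes after adjustment, higher, lower or near Tcf7, with 2977 at an unadjusted p under 0.05. With 4 against 5 mice its smallest p is coarse. The 2381 genes whose groups did not overlap were too few for that p to pass the adjustment, so no call was possible. Of the 100 genes that neighbour Tcf7, 49 were called with array weights and 9 with the added threshold. For Fzd7 the probe set brightest over the 9 arrays reversed the difference to -0.36. The cause of these shifts was not tested.

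Mice with the same replicate number did not deviate together, with correlations of -0.29 to 0.12 over 4 pairs, so the numbers were not taken as pairs. With the replicate block 1257 genes were called, 297 lower, with a share of 76.4%. The same 8 arrays without the block, a setting chosen after seeing the data, gave 424 lower genes and 73.4%. The counts of list members with arrays left out were also chosen after seeing the data.

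Among called genes of the text, the call was lost without at least 1 single mouse for Bcl11b, Bcl2, C1qb, Cldn4, Gm15498, Id1, Ier3, Il21r, Jun, Lyve1, Pfkm, Pnp, Pparg, Ppp1r35, Rag2, S100a9, Slc35d1, Slc7a7, Tnni2 and Tsc22d4, and without both control arrays that stood apart for Bcl2, C1qb, Id1, Jun, Notch3 and Prf1. For genes near background, such as Slc6a19 in Tcf1-/- thymi, differences are compressed.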
